A study of Homo sapiens with 6 samples.

Results

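The 38 genes described here are the BCL2 family, the caspases, the death receptors and their direct regulators. They were chosen by gene symbol, with earlier results of these data known but by no rule on measured values, from the 58735 genes of the deposited table. By role they comprised 5 antiapoptotic BCL2 proteins, 3 pore-forming effectors, 8 BH3-only proteins, 2 divergent BCL2-like proteins, 5 apoptotic and 2 inflammatory caspases, APAF1, 3 IAPs (inhibitor of apoptosis proteins), DIABLO, 4 death receptors, 1 decoy receptor, 2 receptor adaptors and CFLAR. RNA-seq was performed on HGC-27, a human gastric cancer cell line, to compare knockdown of ACAT2, an enzyme that makes acetoacetyl-CoA early in cholesterol synthesis, with its control. There were 3 libraries of cells given the vector pSIH-H1-Puro-shACAT2 (shACAT2) and 3 of cells given pSIH-H1-Puro-shNC (shNC), the control. The labels give the genotype as ACAT2 knockdown for the first group and wild type for the second. Both groups were exposed to their vector for 24 hours and were then selected with puromycin for 7 days, so that the vector and the selection were shared. The labels do not give the hairpin or say whether libraries came from separate cultures or clones, and p-values therefore measure the spread between these libraries, which may be technical. Values are FPKM (fragments normalised to exon length and sequencing depth) and are listed in the order of replicates 1, 2 and 3.

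Apoptosis is run by a balance of proteins at the mitochondrial outer membrane. The antiapoptotic BCL2 proteins hold the effectors BAX and BAK1 in check, and the BH3-only proteins, which sense stress, bind the antiapoptotic proteins or activate the effectors directly. Once the membrane is permeable, released cytochrome c joins APAF1 and activates caspase-9, while death receptors at the cell surface activate caspase-8 through the adaptor FADD. Epithelial tumours, gastric tumours among them, often rely on MCL1 and BCL-XL, the long product of BCL2L1, more than on BCL2 itself.

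The libraries held between 14086416 and 16067486 fragments on genes. ACAT2 had 14.2, 11.7 and 12.7 FPKM in the shNC libraries and 6.19, 5.46 and 6.05 FPKM in the shACAT2 libraries (log2 fold change −1.01, SE 0.10, limma adjusted p = 0.00594), so the targeted gene was lower in all 3 libraries labelled as its knockdown. SETD7, a lysine methyltransferase followed in the same study, had 7.77, 8.60 and 8.12 FPKM in shNC and 2.54, 3.49 and 3.23 FPKM in shACAT2 (−1.17, SE 0.11, limma adjusted p = 0.00516). By genes detected, library shACAT2-3 stood apart, with 7477 genes detected in it alone against 416 to 657 in each of the others. Libraries shNC-2 and shNC-3 were close, with a chi-square of 1.73 per gene, whereas it was 12.1 to 46 for any other pair of libraries of 1 group. By that measure shACAT2-1 was the most distant of its group, with 27.7 against shACAT2-2 and 46 against shACAT2-3. It was 14.7 between shACAT2-2 and shACAT2-3. Values without shACAT2-3, or with shNC-2 and shNC-3 taken as 1 sample, therefore stand beside the main results. For BCL2L1, MCL1, BAK1 and BMF the range on leaving out each library in turn is also given. ACAT2 and SETD7 had limma adjusted p of 0.0196 and 0.0171 without shACAT2-3, and of 0.0402 for both with shNC-2 and shNC-3 as 1 sample, and ACAT2 had 0.0512 without shNC-3. Of 12 epithelial and gastric markers, 10 lay under 1 FPKM in all 6 libraries, with TFF1 and GKN1 at 0 in all of them and KRT18 at 0 in 5, so most of the defining epithelial markers were absent or nearly so. CDH1, which encodes E-cadherin, had 0.222, 0.120 and 0.141 FPKM in shNC and 0.608, 0.828 and 1.15 FPKM in shACAT2, from 12 to 107 fragments, without overlap and under the filter for testing. The summed level of that list was 2.56 to 3.70 FPKM in shNC and 3.94 to 5.10 FPKM in shACAT2, and the 1 gene of it that was tested, CDX2, passed neither limma's adjusted nor its unadjusted threshold. The mesenchymal list of 4 genes summed to 253 to 298 FPKM and 349 to 467 FPKM, nearly all of it VIM; of 3 tested, 0 passed limma's adjusted threshold and 1, VIM, an unadjusted p below 0.05, with a limma adjusted p of 0.0634 that was 0.0265 with the replicate block. A list of 14 fibroblast, immune and endothelial markers summed to 303 to 337 FPKM and 441 to 532 FPKM through collagens, DCN and LUM; of 5 tested, 3 were higher (COL1A1, DCN and LUM) and 0 lower (4 and 0 at an unadjusted p below 0.05, and 4 and 0 at adjusted p with the replicate block, which added COL3A1), while PTPRC, CD3E, CD68, PECAM1 and CDH5 stayed under 0.2 FPKM in all libraries. Among all genes tested, 3.3% were higher and 1.81% lower at limma adjusted p below 0.05, and 23.5% had an unadjusted p below 0.05. With the replicate block, 7.67% of all genes were higher and 4.81% lower. With shNC-2 and shNC-3 as 1 sample, COL1A1, DCN and LUM had limma adjusted p of 0.0931, 0.138 and 0.155, and without shACAT2-3 of 0.0228, 0.0528 and 0.0747. The part of these differences in the results that follow was not tested.

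Within the 38 genes, BMF, a BH3-only protein, was the 1 gene past the threshold of limma adjusted p below 0.05, with a mean of 2.02 ± 0.25 FPKM in shACAT2 against 1.03 ± 0.10 FPKM in shNC (SD, n = 3). BCL2L1 and the effector BAK1 had means 1.85 and 1.65 times those of shNC, and MCL1, the most abundant of the 38, had a mean 0.766 times that of shNC. These 3 missed the threshold in the unpaired fit and passed it when the replicate number was a block. XIAP also passed with the block. The labels give replicate numbers but do not call equal numbers pairs. In deviations from the group means, shNC-2 correlated more with shACAT2-3 (0.198) than with shACAT2-2 (0.126). Results with the block or within numbered pairs therefore rest on an assumed pairing. BAX, BID, BAD, PMAIP1, FADD and the TRAIL receptors TNFRSF10A and TNFRSF10B had means 0.986 to 1.03 times those of shNC. In bulk samples, fewer cells expressing a gene and less RNA of it per cell cannot be told apart.

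A gene was tested when its mean was at least 1 FPKM in either group, and 28 of the 38 were, each with such a mean in both groups. Of these 28, 1 rose at limma adjusted p below 0.05 (3.57%, against 3.3% of all 13832 genes tested) and 0 fell (against 1.81%). At an unadjusted limma p below 0.05 there were 5 (17.9%, against 23.5%), namely BMF, BCL2L1, MCL1, BAK1 and CASP8. With the replicate block 4 were higher (BCL2L1, BAK1, BMF and XIAP; 14.3%, against 7.67%) and 1 was lower (MCL1; 3.57%, against 4.81%). An absolute log2 fold change above 1 with an unadjusted limma p below 0.05, the rule that the study used, was met by 0 of the 28 and by 1.5% of all genes. The groups did not overlap for 8 of the 28 (28.6%, against 30.7% of all genes), of which BCL2L1, BAK1, BMF and CASP8 were higher in shACAT2 and MCL1, BCL2L11, HRK and FAS were lower. The median log2 fold change was 0.02 over the 28, with 14 above and 14 below 0, and also 0.02 over all genes tested. Without the block, the share called and the share without overlap were thus near those of all genes.

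**Figure D1:**
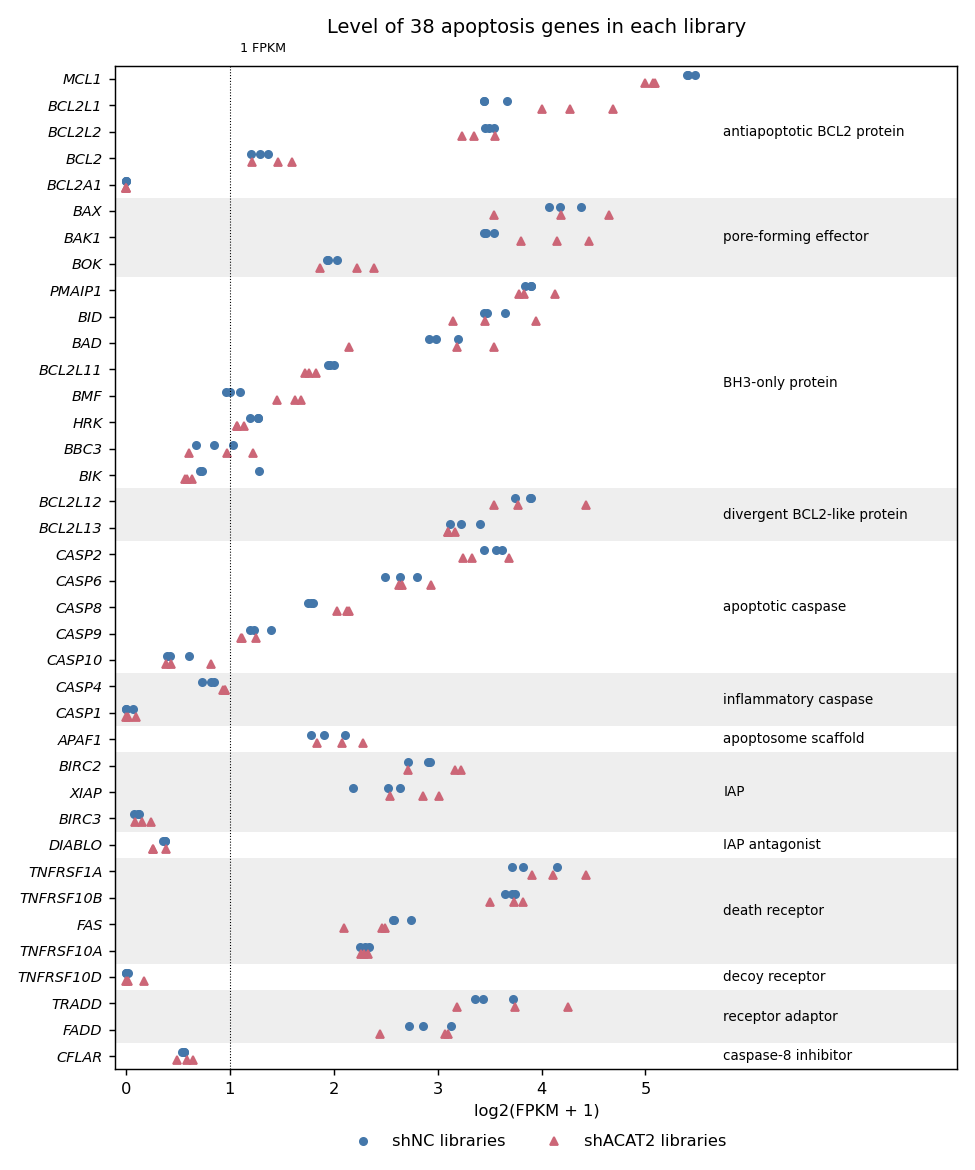
Level of each of the 38 genes in the 3 shNC libraries (circles) and the 3 shACAT2 libraries (triangles) as log2(FPKM + 1), grouped by role, with a dotted line at 1 FPKM; for DIABLO, which has 2 entries, the longer one is drawn. MCL1 lies highest in every library. The shACAT2 triangles lie to the right of all shNC circles for BCL2L1, BAK1, BMF, CASP8 and CASP4. They lie to the left of them for MCL1, BCL2L11, HRK, FAS and BIK. CASP4 and BIK were not tested.

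Among the antiapoptotic BCL2 proteins, BCL2L1 was higher and MCL1 lower in every shACAT2 library than in any shNC library. BCL2L1 (chr20:31664452-31723989, minus strand, hg38) encodes BCL-XL and, by alternative splicing, the proapoptotic BCL-XS, which gene-level values do not separate. It had 11.8, 9.88 and 9.92 FPKM in shNC and 24.8, 18.4 and 15.02 FPKM in shACAT2, from 531 to 1248 fragments per library. The lowest shACAT2 library lay above the highest shNC library, and the shACAT2 libraries spread more widely (SD 4.97 against 1.07 FPKM, n = 3 each). The log2 fold change was 0.80 (SE 0.18, 95% interval 0.37 to 1.23, limma adjusted p = 0.055), with an adjusted p of 0.0259 with the replicate block and differences of 1.02, 0.83 and 0.55 in the 3 numbered pairs. Without shACAT2-3 it was 0.96 (limma adjusted p = 0.038), and it was 0.76 when the close libraries shNC-2 and shNC-3 counted as 1 (limma adjusted p = 0.2). On leaving out each library in turn it ranged from 0.62 to 0.96 (limma adjusted p of 0.038 to 0.204). ABALON, on the opposite strand, shares 1424 of the 3314 exon bases of BCL2L1 (43%), and had 0.778 to 1.58 FPKM in all libraries (limma adjusted p = 0.501). The strand setting of the counting is not stated, so reads in that shared stretch cannot be told apart.

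MCL1 (chr1:150574551-150579738, minus strand), a short-lived protein that binds BAK1 and several BH3-only proteins, had 41.5, 41.1 and 43.6 FPKM in shNC and 32.6, 33.1 and 30.9 FPKM in shACAT2. It rested on 2029 to 3287 fragments per library, and its groups were tight (SD 1.36 and 1.12 FPKM) and did not overlap. Its log2 fold change was −0.38 (SE 0.09, 95% interval −0.60 to −0.15, limma adjusted p = 0.0693; 0.0424 with the replicate block), and it was lower in 3 of 3 pairs. Without shACAT2-3 the value was −0.35 (limma adjusted p = 0.0988), and with shNC-2 and shNC-3 taken as 1 sample it was −0.37 (limma adjusted p = 0.265). On leaving out each library in turn it ranged from −0.39 to −0.35 (limma adjusted p of 0.0626 to 0.287).

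BCL2, the founding member, was expressed at a far lower level, 1.3, 1.46 and 1.59 FPKM in shNC and 1.32, 2.04 and 1.76 FPKM in shACAT2. The groups overlapped, and the log2 fold change of 0.14 had a 95% interval of −0.19 to 0.46 (limma adjusted p = 0.605). BCL2L2, which encodes BCL-W, ranged from 8.45 to 10.8 FPKM over the 6 libraries, with a log2 fold change of −0.12 (95% interval −0.37 to 0.14, limma adjusted p = 0.572); 813 of its exon bases (19.4%) are shared with the readthrough gene BCL2L2-PABPN1 on the same strand. BCL2A1, an NF-kB-inducible member, had 0 fragments in all 6 libraries, and a count of 0 allows up to 3 fragments, or 0.16 to 0.184 FPKM per library, as counting error alone.

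The sum of the 5 antiapoptotic transcripts was 64.8, 62.4 and 65.8 FPKM in shNC and 69.5, 62.7 and 56.2 FPKM in shACAT2. That sum overlapped between the groups, while its division among the genes did not. MCL1 made up 64, 65.9 and 66.3% of that sum in shNC and 46.9, 52.8 and 55.1% in shACAT2. BCL2L1 made up 18.1, 15.8 and 15.1% in shNC and 35.7, 29.3 and 26.8% in shACAT2. Per unit of MCL1 there were 0.283, 0.241 and 0.228 units of BCL2L1 in shNC and 0.761, 0.556 and 0.486 in shACAT2. That ratio was 2.69, 2.31 and 2.13 times higher in shACAT2 within the numbered pairs. It was chosen after the values were seen, so it is given as a description with no test.

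Of the pore-forming effectors, BAK1 was higher in shACAT2 and BAX was not separated from the control. BAK1 (chr6:33572547-33580293, minus strand) had 10.7, 9.93 and 10.0 FPKM in shNC and 20.9, 16.7 and 13.0 FPKM in shACAT2, from 356 to 702 fragments. All shACAT2 libraries lay above all shNC libraries. The log2 fold change was 0.65 (SE 0.17, 95% interval 0.26 to 1.04, limma adjusted p = 0.0725; 0.0433 with the replicate block), and without shACAT2-3 it was 0.81 (limma adjusted p = 0.0323). With shNC-2 and shNC-3 taken as 1 sample it was 0.63 (limma adjusted p = 0.239). On leaving out each library in turn it ranged from 0.49 to 0.81 (limma adjusted p of 0.0323 to 0.241). BAX, its partner in function, had 19.8, 15.8 and 17.1 FPKM in shNC and 24.1, 17.2 and 10.6 FPKM in shACAT2. Its shACAT2 libraries spanned the shNC values on both sides, and the log2 fold change of −0.08 had a 95% interval of −0.71 to 0.55 (limma adjusted p = 0.88), wide enough to hold the value of BAK1. Without shACAT2-3 the value for BAX was 0.21. The log2 ratio of BAX to BAK1 was 0.89, 0.67 and 0.77 in shNC and 0.21, 0.04 and −0.29 in shACAT2, and did not overlap; it was also chosen after the values were seen. BOK, a less studied effector, ranged from 2.66 to 4.25 FPKM, with a log2 fold change of 0.19 (95% interval −0.15 to 0.53, limma adjusted p = 0.47).

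Of the 6 BH3-only genes tested, BMF rose and the other 5 did not pass. BMF (chr15:40087890-40108892, minus strand), known as a sensor of cytoskeletal stress and loss of attachment, had 1.01, 1.14 and 0.948 FPKM in shNC and 2.10, 2.22 and 1.74 FPKM in shACAT2. Every shACAT2 library exceeded every shNC library, at a low level that rested on 84 to 201 fragments. The log2 fold change on the log2(FPKM + 1) scale, which understates the change of low genes, was 0.57 (SE 0.12, 95% interval 0.28 to 0.85, limma adjusted p = 0.0459; 0.0374 with the replicate block), and BMF was higher in 3 of 3 pairs. The call was narrow. It was lost on leaving out shNC-1 (limma adjusted p = 0.127), shNC-2 (0.151), shNC-3 (0.19), shACAT2-1 (0.0705) or shACAT2-2 (0.146), and was kept without shACAT2-3 (0.0491), while the log2 fold change stayed between 0.52 and 0.64. It was also lost with no filter (limma adjusted p = 0.135), with upper-quartile scaling (0.0504) and with shNC-2 and shNC-3 taken as 1 sample (0.163).

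PMAIP1, which encodes NOXA, a selective partner of MCL1, was the most abundant BH3-only gene, with 13.4, 13.9 and 13.9 FPKM in shNC and 13.2, 16.5 and 12.7 FPKM in shACAT2. Its groups overlapped (log2 fold change 0.03, 95% interval −0.25 to 0.31, limma adjusted p = 0.892). BCL2L11, which encodes BIM, had 2.86 to 3.00 FPKM in shNC and 2.30 to 2.55 FPKM in shACAT2 without overlap (−0.20, 95% interval −0.41 to 0.01, limma adjusted p = 0.228). HRK had 1.29 to 1.42 and 1.11 to 1.21 FPKM, again without overlap (−0.15, 95% interval −0.42 to 0.12, limma adjusted p = 0.476). Both thus lay on the other side of 0 from BMF without passing the test. BID, which is cleaved by caspase-8 and links death receptors to mitochondria, ranged from 9.88 to 11.6 FPKM in shNC and 7.85 to 14.4 FPKM in shACAT2 (−0.01, 95% interval −0.48 to 0.47). BAD, which is regulated by phosphorylation, ranged from 6.55 to 8.19 and from 3.43 to 10.7 FPKM (−0.07, 95% interval −0.86 to 0.71), and 23.7% of its exon bases are shared with GPR137 on the opposite strand. BBC3, which encodes PUMA, and BIK were under the filter. BBC3 had 0.601 to 1.05 FPKM in shNC and 0.524 to 1.35 FPKM in shACAT2, and BIK had 0.647 to 1.44 and 0.490 to 0.553 FPKM on 7 to 21 fragments, without overlap.

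Sequences upstream of the 3 tested genes with a mean in shACAT2 at least 1.65 times that in shNC are shown because transcription of these genes starts there and so that their composition can be compared. They are the RefSeq windows (GRCh38.p14) from 250 bases before to 50 after the gene start, read on the minus strand from 5′ to 3′, at chr20:31723914-31724213 for BCL2L1, chr6:33580227-33580526 for BAK1 and chr15:40108830-40109129 for BMF. BCL2L1 and BMF had 2 listed windows each, and only the window nearest the GENCODE 29 start is shown and described. Capitals mark the letters GGGCGG, the core of the GC box bound by SP factors, or CCGCCC where the match is on the other strand.
BCL2L1: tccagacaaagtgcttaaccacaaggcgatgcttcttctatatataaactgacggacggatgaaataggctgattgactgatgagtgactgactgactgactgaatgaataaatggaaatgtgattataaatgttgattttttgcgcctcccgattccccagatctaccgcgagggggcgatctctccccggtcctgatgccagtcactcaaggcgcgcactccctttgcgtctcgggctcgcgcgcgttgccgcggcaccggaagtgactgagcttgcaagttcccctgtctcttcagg
BAK1: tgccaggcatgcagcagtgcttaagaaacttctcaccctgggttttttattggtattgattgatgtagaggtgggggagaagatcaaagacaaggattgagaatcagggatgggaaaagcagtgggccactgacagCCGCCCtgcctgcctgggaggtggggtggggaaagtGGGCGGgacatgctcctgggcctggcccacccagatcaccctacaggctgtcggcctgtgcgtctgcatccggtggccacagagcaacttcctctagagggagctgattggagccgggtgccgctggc
BMF: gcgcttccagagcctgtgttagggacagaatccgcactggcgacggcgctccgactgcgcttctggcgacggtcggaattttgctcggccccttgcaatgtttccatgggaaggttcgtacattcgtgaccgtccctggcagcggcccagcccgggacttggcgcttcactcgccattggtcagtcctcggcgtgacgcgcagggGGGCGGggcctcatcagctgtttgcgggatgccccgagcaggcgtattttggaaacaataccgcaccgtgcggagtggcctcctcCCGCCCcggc
The windows differed in composition, with a GC content of 52% and 20 CpG dinucleotides for BCL2L1, 58.7% and 7 for BAK1, and 65% and 31 for BMF. The GC box letters occurred 2 times in the BAK1 window, 2 times in the BMF window and 0 times in the BCL2L1 window, and at least once in 45% of 35116 promoter windows of this length searched on both strands. The letters GGAATG of the TEAD motif occurred in 0 of the 3 windows and in 14% of all windows. Windows were found for 29 of the 38 genes; MCL1, BCL2L2, BIK, CASP1, CASP10, TRADD, TNFRSF10A, TNFRSF10B and TNFRSF10D had no entry.

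**Figure D2:**
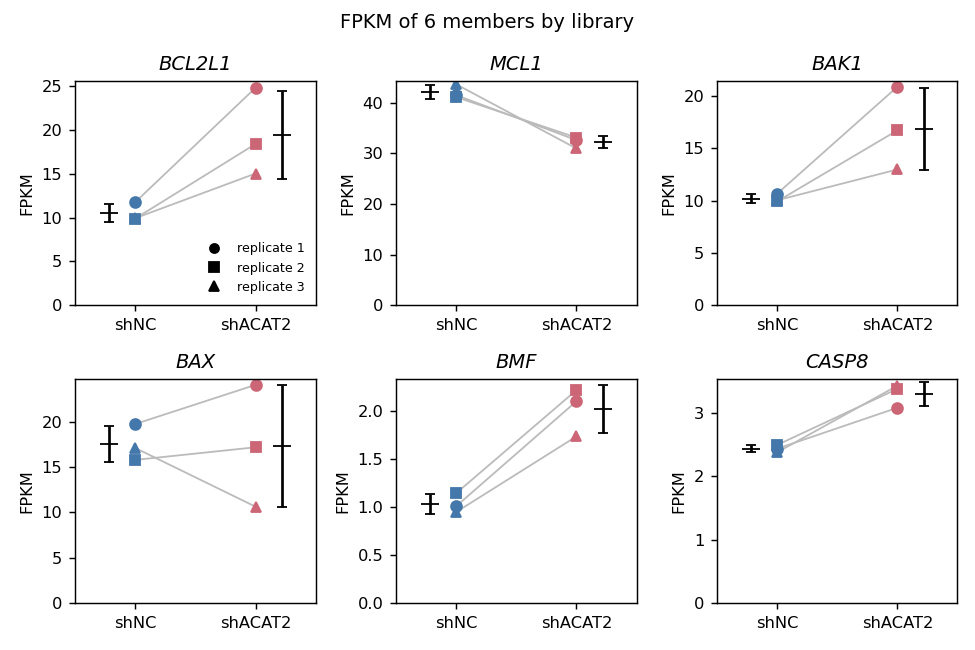
FPKM of BCL2L1, MCL1, BAK1, BAX, BMF and CASP8 in each library, 3 shNC and 3 shACAT2, with grey lines joining equal replicate numbers and black bars of the mean and 1 SD. The groups are separate for 5 of these genes, while the shACAT2 values of BAX, 10.6 to 24.1 FPKM, span its shNC values.

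The divergent BCL2-like genes, whose part in apoptosis is less settled, showed no call. BCL2L12 had 13.9, 13.8 and 12.4 FPKM in shNC and 20.6, 12.7 and 10.7 FPKM in shACAT2, so that shACAT2-1 alone lay above the controls (log2 fold change 0.07, 95% interval −0.45 to 0.60, limma adjusted p = 0.871). It shares 33.1% of its exon bases with IRF3 on the opposite strand, which had 14.3, 10.7 and 6.59 FPKM in the shACAT2 libraries in the same order of levels. BCL2L13 ranged from 7.69 to 9.64 FPKM in shNC and 7.58 to 7.99 FPKM in shACAT2 (−0.13, 95% interval −0.37 to 0.12, limma adjusted p = 0.507).

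Among the caspases, CASP8, the initiator downstream of death receptors, was the 1 gene whose groups did not overlap among those tested. CASP8 (chr2:201233443-201287711, plus strand) had 2.44, 2.50 and 2.38 FPKM in shNC and 3.08, 3.38 and 3.43 FPKM in shACAT2. The 3 libraries of each group lay close together (SD 0.06 and 0.19 FPKM), and CASP8 was higher in 3 of 3 pairs. It nevertheless missed the threshold, with a log2 fold change of 0.32 (SE 0.09, 95% interval 0.11 to 0.53, limma adjusted p = 0.0875; 0.0581 with the replicate block). Without shACAT2-3 it was 0.30 (limma adjusted p = 0.141). CASP9, the initiator activated on APAF1, had 1.64, 1.36 and 1.299 FPKM in shNC and 1.39, 1.17 and 1.18 FPKM in shACAT2 (−0.12, 95% interval −0.40 to 0.17, limma adjusted p = 0.62), with overlapping groups. CASP2, the most abundant caspase of the set, had 11.3, 9.90 and 10.8 FPKM in shNC and 9.03, 8.48 and 11.9 FPKM in shACAT2 (−0.12, 95% interval −0.45 to 0.20). CASP6, an executioner, ranged from 4.63 to 5.97 and from 5.19 to 6.65 FPKM (0.10, 95% interval −0.20 to 0.40). CASP10, a relative of CASP8, was under the filter at 0.317 to 0.525 FPKM in shNC and 0.312 to 0.763 FPKM in shACAT2.

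The inflammatory caspases were low. CASP4, which senses cytosolic lipopolysaccharide, had 0.765, 0.663 and 0.799 FPKM in shNC and 0.944, 0.920 and 0.946 FPKM in shACAT2, from 78 to 111 fragments. The groups were separate, but the gene was under the filter and was not tested. CASP1, the inflammasome protease, was at the limit of detection with 0 to 4 fragments per library.

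APAF1, the scaffold of the apoptosome, had 2.45, 3.33 and 2.76 FPKM in shNC and 2.59, 3.88 and 3.24 FPKM in shACAT2. The groups overlapped, and each shACAT2 library was above the shNC library of its number by 0.06 to 0.18 on the log2 scale (log2 fold change 0.14, 95% interval −0.21 to 0.48, limma adjusted p = 0.626). Of the IAPs, XIAP, a direct inhibitor of caspases, showed the same arrangement more strongly. It had 3.54, 5.24 and 4.74 FPKM in shNC and 4.82, 7.07 and 6.25 FPKM in shACAT2. Its groups overlapped, but the differences within the numbered pairs were nearly equal, at 0.36, 0.37 and 0.34 on the log2 scale. The log2 fold change of 0.36 (95% interval −0.04 to 0.75) had a limma adjusted p of 0.253 without the block and 0.0344 with it, and without shACAT2-3 it was 0.33 (limma adjusted p = 0.337, no block). BIRC2, which regulates TNF signalling as cIAP1, had 5.55, 6.52 and 6.63 FPKM in shNC and 5.57, 8.36 and 7.999 FPKM in shACAT2 (0.19, 95% interval −0.18 to 0.55, limma adjusted p = 0.515). BIRC3, its NF-kB-inducible paralogue, was under the filter at 0.061 to 0.184 FPKM in all libraries.

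DIABLO, which antagonises the IAPs after release from mitochondria, could not be measured with certainty. Its symbol has 2 entries that share 2006 exon bases with each other and 1139 with AC048338.1 on the same strand. The longer entry had 0.28, 0.3 and 0.3 FPKM in shNC and 0.204, 0.204 and 0.305 FPKM in shACAT2. The shorter entry had 0 fragments in 4 libraries and at most 3 in the others. Neither was tested.

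**Figure D3:**
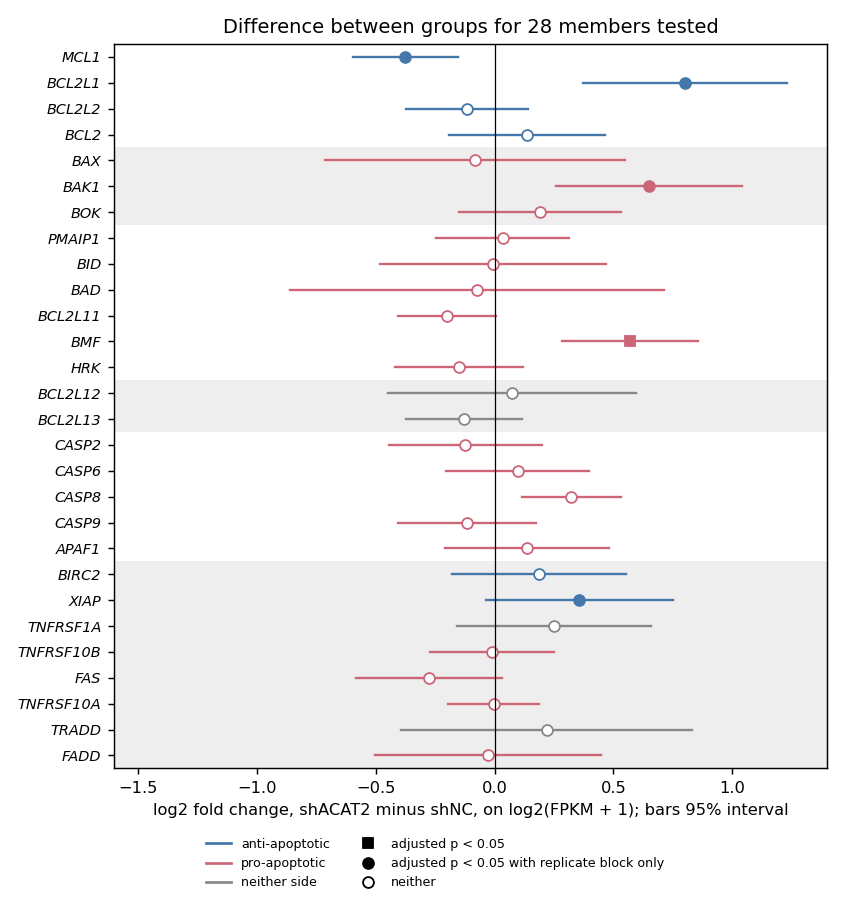
Log2 fold change of shACAT2 against shNC on log2(FPKM + 1) with its 95% interval for each of the 28 genes tested, coloured by side and ordered by role; a filled square marks a limma adjusted p below 0.05, a filled circle the same with the replicate block alone and an open circle neither. The intervals of BCL2L1, BAK1, BMF and CASP8 lie above 0 and that of MCL1 lies below 0, while those of the other 23 genes include 0.

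The death receptor arm showed no call. TNFRSF1A, the main TNF receptor, was the most abundant receptor, with 16.8, 13.1 and 12.2 FPKM in shNC and 20.5, 16.3 and 14.0 FPKM in shACAT2. It was higher in 3 of 3 numbered pairs, with overlapping groups (log2 fold change 0.25, 95% interval −0.16 to 0.66, limma adjusted p = 0.43). TNFRSF10B, which encodes the TRAIL receptor DR5, had 12.4, 11.5 and 12.1 FPKM in shNC and 13.2, 12.4 and 10.4 FPKM in shACAT2 (−0.01, 95% interval −0.27 to 0.25, limma adjusted p = 0.967). TNFRSF10A, which encodes the TRAIL receptor DR4, ranged from 3.79 to 4.07 FPKM in shNC and 3.82 to 4.04 FPKM in shACAT2 (0.00, 95% interval −0.20 to 0.19). For both TRAIL receptors the interval left out a difference as large as that of MCL1 in either direction. FAS had 4.98, 4.95 and 5.70 FPKM in shNC and 3.30, 4.53 and 4.65 FPKM in shACAT2. All 3 shACAT2 values were below all shNC values, and the test did not pass (−0.28, 95% interval −0.58 to 0.03, limma adjusted p = 0.257). The decoy receptor TNFRSF10D had 0.018, 0 and 0 FPKM in shNC and 0.019, 0 and 0.132 FPKM in shACAT2, with at most 7 fragments, and its highest value was in shACAT2-3, the library with most genes detected in it alone.

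Below the receptors, FADD, the adaptor that recruits caspase-8, ranged from 5.60 to 7.74 FPKM in shNC and 4.45 to 7.59 FPKM in shACAT2 (log2 fold change −0.03, 95% interval −0.50 to 0.45, limma adjusted p = 0.951), and 54.9% of its exon bases are shared with AP000879.1 on the opposite strand. TRADD, the adaptor of TNFRSF1A, had 12.2, 9.30 and 9.85 FPKM in shNC and 18.04, 12.4 and 8.13 FPKM in shACAT2. Its shACAT2 libraries lay on both sides of the shNC range (0.22, 95% interval −0.39 to 0.83, limma adjusted p = 0.662). CFLAR, which encodes the caspase-8 inhibitor FLIP, had 0.455, 0.474 and 0.479 FPKM in shNC and 0.406, 0.566 and 0.503 FPKM in shACAT2 and was under the filter, although it had 139 to 212 fragments per library over an exon length of 22529 bases.

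The question posed by the set was the balance of its sides. Of 22 proapoptotic genes 18 were tested, 7 with a log2 fold change above 0 and 11 below it, and their median was −0.01. Of 10 antiapoptotic genes 6 were tested, 4 above and 2 below 0, and their median was 0.16, set beside 0.02 over all genes. The remaining 6 of the 38 were assigned to neither side. In summed FPKM the proapoptotic genes had 127, 116 and 118 in shNC and 145, 130 and 108 in shACAT2. The antiapoptotic genes had 74.4, 74.7 and 77.7 in shNC and 80.5, 78.8 and 71.2 in shACAT2. The log2 ratio of the sums was 0.67 ± 0.09 in shNC and 0.72 ± 0.13 in shACAT2 (SD, n = 3), a difference of 0.06 that was smaller than either SD. Its sign depended on how the sides were summarised: it was −0.08 as a difference of mean log2 values and −0.29 without the 3 most abundant genes of each side.

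The log2 ratio of BAX to BCL2, widely used as a single index of this balance, was 3.93, 3.44 and 3.43 in shNC and 4.20, 3.08 and 2.60 in shACAT2. The shACAT2 libraries lay on both sides of the controls, and the difference in means was −0.31 with an SD of 0.82 in shACAT2. Without shACAT2-3 it was 0.04. The log2 ratio of BCL2L1 to MCL1 was −1.82, −2.06 and −2.14 in shNC and −0.39, −0.85 and −1.04 in shACAT2, with a difference of 1.24. It was chosen after the values were seen. BCL2L1 was higher and MCL1 lower in every shACAT2 library, so the lack of overlap of their ratio follows from that choice. For any single ratio, the exact two-sided permutation test of 3 against 3 cannot go below p = 0.1.

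**Figure D4:**
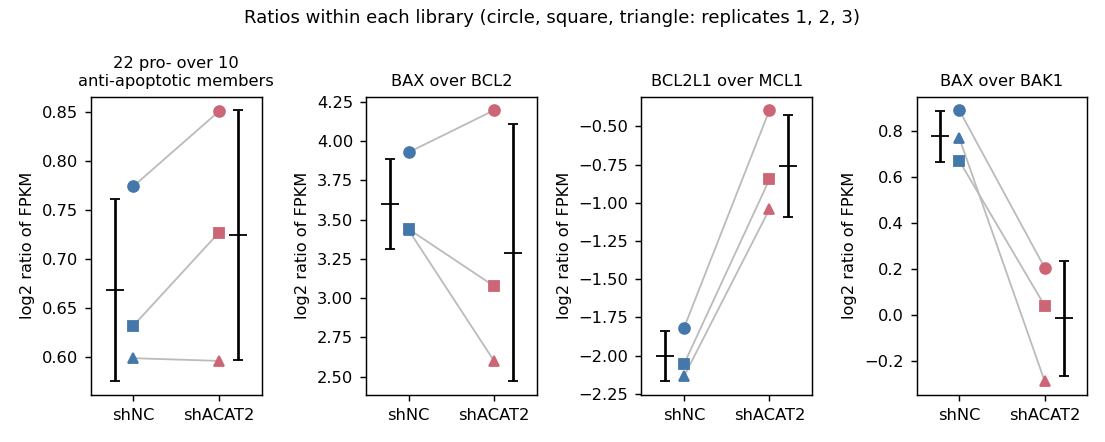
Log2 ratios of FPKM in each library, 3 shNC and 3 shACAT2, for the summed proapoptotic to antiapoptotic genes, BAX to BCL2, BCL2L1 to MCL1 and BAX to BAK1, with grey lines joining equal replicate numbers and black bars of the mean and 1 SD. The first 2 ratios overlap between the groups. BCL2L1 to MCL1 and BAX to BAK1 do not, and both were chosen after the values were seen. BCL2L1 to MCL1 is −2.14 to −1.82 in shNC and −1.04 to −0.39 in shACAT2.

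The spread among the shACAT2 libraries had a pattern across the set. Genes with GC-rich transcripts were higher in shACAT2-1 than in shACAT2-3: of the 9 tested genes with at least 55% GC, all 9 were, by 0.52 to 1.4 on the log2 scale, with BAD (1.4), BAX (1.11) and TRADD (1.06) the widest. Of the 11 with at most 46% GC, 9 were lower in shACAT2-1, and the range was −0.45 (BIRC2) to 0.07. Across the 28 genes, which share these libraries, Pearson's r between transcript GC and this difference was 0.87, and it was 0.55 across all genes tested with a GC value. Between shNC-1 and shNC-2 the corresponding r was 0.67 across the 28 genes, and for the mean difference between the groups it was 0.23.

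BCL2L1 (56.9% GC) and BAK1 (58.8% GC) belonged to the GC-rich genes, and their shACAT2 values had the same order of libraries as those of BAX (58.9% GC), while MCL1 (45.1% GC) and CASP8 (42.6% GC) did not show that order. When a smooth trend on GC was removed from each library, an alternative chosen after seeing the data, BCL2L1 had a log2 fold change of 0.80 (limma adjusted p = 0.00341), BAK1 0.65 (0.00376), MCL1 −0.39 (0.0109), BMF 0.57 (0.0245), CASP8 0.29 (0.0332) and FAS −0.32 (0.0437). These were 6 of the 28 (21.4%, against 16.5% of all genes under the same correction). The log2 fold changes of these genes moved by at most 0.04, while the SE fell from 0.18 to 0.09 for BCL2L1 and from 0.17 to 0.07 for BAK1 and stayed at 0.12 for BMF.

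**Figure D5:**
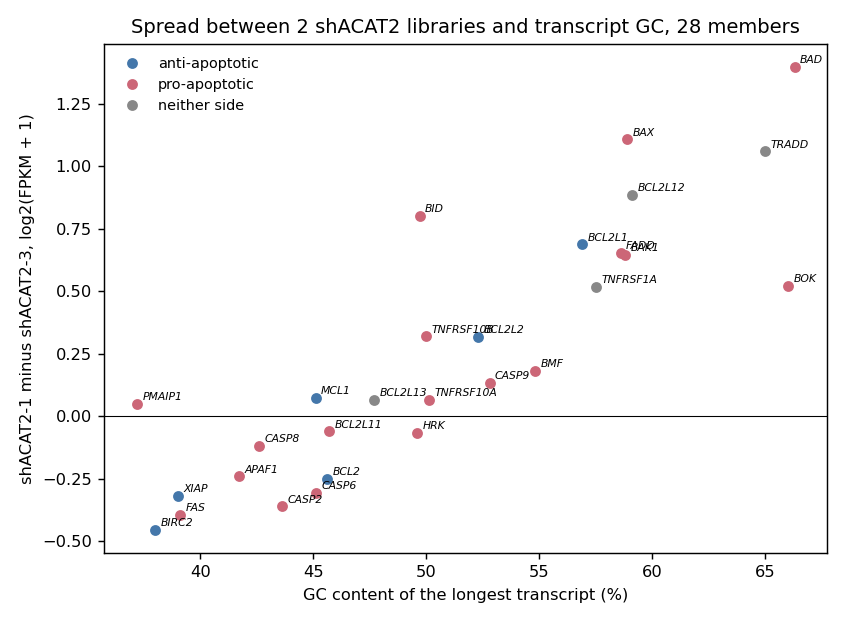
Difference between libraries shACAT2-1 and shACAT2-3 in log2(FPKM + 1) against the GC content of the longest transcript in percent, 1 point for each of the 28 genes tested. The difference climbs with GC, from −0.45 for BIRC2 to 1.4 for BAD (Pearson's r = 0.87, a description over genes that share both libraries).

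Other genes of the pathway were read from 3 further lists. Of 40 other genes of the apoptosis machinery, which include IAP relatives, ligands and mitochondrial channel proteins, 23 were tested, 1 rose and 0 fell by limma (3 and 3 at an unadjusted p below 0.05), beside 3.3% higher, 1.81% lower and 23.5% at an unadjusted p among all genes tested. The gene that rose was BNIP3L, a BH3-like protein best known for the removal of mitochondria, at 4.95 ± 0.53 FPKM in shNC and 7.55 ± 0.68 FPKM in shACAT2 (log2 fold change 0.52, SE 0.11, limma adjusted p = 0.0423). With the replicate block 2 were higher, BNIP3L and VDAC2, and DFFA was lower.

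Of 25 p53 target genes outside the set, 20 were tested, 2 rose and 0 fell by limma (2 and 1 at an unadjusted p below 0.05), beside the same shares of all genes. CDKN1A, which encodes the cell cycle inhibitor p21, had 3.73 ± 0.41 FPKM in shNC and 7.49 ± 1.73 FPKM in shACAT2 (log2 fold change 0.83, SE 0.16, limma adjusted p = 0.0343), and PERP, a desmosomal protein, had 7.70 and 11.7 FPKM (0.54, SE 0.11, limma adjusted p = 0.0456). With the replicate block SESN2 was lower. Among p53 targets within the 38 genes, BAX, PMAIP1, TNFRSF10B, FAS and APAF1 did not pass, and BBC3 was not tested. FAS was lower in shACAT2 without overlap (−0.28, limma adjusted p = 0.257, or 0.0437 after the trend on GC was removed). A part of p53 in these values was not tested. Of 24 NF-kB target genes, 17 were tested, 3 rose and 0 fell by limma (5 and 0 at an unadjusted p below 0.05), again beside 3.3%, 1.81% and 23.5% of all genes: CCL2, a chemokine, with 3.90 and 14.2 FPKM (1.62, SE 0.13, limma adjusted p = 0.00347), IER3 with 4.78 and 11.4 FPKM (1.07, SE 0.19, limma adjusted p = 0.0286) and GADD45B with 4.77 and 10.9 FPKM (1.00, SE 0.22, limma adjusted p = 0.0496). Among the 5 at an unadjusted p below 0.05, TNFAIP3 (0.498 and 1.15 FPKM) and PLAU (0.563 and 1.03 FPKM) reached 1 FPKM in shACAT2 alone. They were tested only through the group where they were higher, so that count is not evidence of a direction. Within the 38 genes, known NF-kB targets include BCL2L1, BCL2A1 and BIRC3, among others, and BCL2A1 and BIRC3 were at or near 0 in both groups. A part of NF-kB in these values was not tested. Of these 6 calls in the 3 lists, that of CCL2 was kept on leaving out each library in turn (limma adjusted p of 0.00762 to 0.0336) and with shNC-2 and shNC-3 as 1 sample (0.0292). The other 5 were lost under the latter, with limma adjusted p of 0.147 for BNIP3L, 0.149 for CDKN1A, 0.193 for PERP, 0.122 for IER3 and 0.18 for GADD45B, and without a filter. They were also lost on leaving out shACAT2-2 or any 1 of the 3 shNC libraries, and that of PERP on leaving out any 1 of the 6 libraries. Without shACAT2-3, CDKN1A (0.0316), IER3 (0.0481) and GADD45B (0.0313) kept the call, and BNIP3L (0.0709) and PERP (0.0758) did not. The medians of the 3 lists were 0.07, 0.07 and 0.14 on the log2 scale, beside 0.02 over all genes tested. That of the NF-kB list includes TNFAIP3, PLAU and RELB, tested through shACAT2 alone, and REL, tested through shNC alone. It is therefore not evidence of a direction.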

How the data were processed

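RNA-seq of 6 HGC-27 libraries was analysed. The authors deposited FPKM values for 58735 genes with gene lengths; the submitters' processing notes name HISAT2 2.0.5, featureCounts 1.5.0-p3 and DESeq2 1.20.0 with hg38, and the strand setting is not stated. All gene coordinates equal those of GENCODE 29. The labels gave the groups and replicate numbers. The labels say that cells were transfected, while the study's methods describe lentiviral vectors and stable cells.

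The 38 genes and the other lists were chosen with earlier results of these data known. Fragments were recovered from FPKM and gene length, and 100% of values were whole within 0.001. Differences were tested with limma 3.58.1 (R 4.3.3), fitted on log2(FPKM + 1) with an intensity trend, for genes whose mean reached 1 FPKM in at least 1 of the groups, with Benjamini-Hochberg adjustment over all 13832 genes; DESeq2 was not run here. On simulated data of that comparison, limma found 0% of 200 genes with a log2 change of 0.5 and 83% of 200 with one of 1.5, among 13832 genes, so small differences can be missed. The simulation gave all genes the same dispersion and no effect of library or GC, so its percentages need not hold for these libraries. Deviations from the group means correlated between samples of equal number (0.445, 0.126 and 0.171). However, shNC-2 with shACAT2-3 (0.198) and shNC-3 with shACAT2-2 (0.141) correlated as well. The main fit did not use the numbers. A fit with the number as a block, which treats equal numbers as pairs, was an alternative. It is given for the members and lists whose calls it changes, and for BMF and CASP8. Python 3.11.15, numpy 2.4.6, pandas 2.3.3 and matplotlib 3.10.9 were used for the other steps.

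Values in every library are given for members past the adjusted threshold, for members at an unadjusted p below 0.05 without overlap, for the highest of each role, and for BCL2, BCL2L1, MCL1, BAX, BAK1, CASP8, CASP9, FAS and TNFRSF10B. XIAP was named in that way after its values were seen. Some genes of the other lists are not reported here. Other scalings, filters, a pseudocount of 0.1, limma-voom on the recovered fragments, averaging of shNC-2 and shNC-3 and leaving out each library were tried. The floor on fragments, given for BCL2A1, covers counting error only. The intervals of log2 fold changes come from the limma fit and, like its p-values, measure the spread between these libraries.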

Additional observations from a re-analysis of the deposited data

How the results depend on the processing

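Genes of the set past limma adjusted p below 0.05 numbered 1, beside 5.1% of all genes tested. They numbered 3 with upper-quartile scaling (2 higher, 1 lower; 5.79% of all genes), 4 with library-size scaling (3 and 1; 6.4%), 3 under a filter of 10 fragments per library (7.18%), 3 with limma-voom (7.35%), 5 with the replicate block (4 and 1; 12.5%), 6 with GC correction (16.5%) and 7 with the replicate block and GC correction (20.5%), the last 2 chosen after seeing the data. The calls over all genes thus grew as well. They numbered 0 by limma without a filter (0.508% of all genes) and 0 when shNC-2 and shNC-3 counted as 1 sample (0.607%), each with 5 at an unadjusted p below 0.05, and 0 to 3 on leaving out 1 library, with 5 to 9 at an unadjusted p below 0.05. The 2 scalings moved the split of all called genes from 456 higher and 250 lower to 436 and 365 (upper quartile) and 486 and 399 (library size). The other 3 lists together had 6 genes past the threshold, 1 without a filter, 1 with the shNC average, 9 with the replicate block, 13 with GC correction, 14 with block and GC correction, and 1 to 5 on leaving out 1 library. The replicate block changed the calls of BCL2L1, MCL1, BAK1 and XIAP and of no other of the 28.

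The proapoptotic median was −0.064 with upper-quartile scaling and −0.077 to 0.11 on leaving out 1 library; the antiapoptotic median stayed above 0 throughout (0.069 to 0.30 on leaving out 1 library). The proapoptotic to antiapoptotic difference was −0.077 as a mean of logs, −0.29 without the 3 most abundant genes of each side, and −0.0069 to 0.12 on leaving out 1 library; that of BAX to BCL2 was −0.76 to 0.04.

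PMAIP1 changed sign, to −0.021 with upper-quartile and −0.016 with library-size scaling, and to −0.02 with GC correction and with block and GC correction, and TNFRSF10A to 0.0072 with the shNC average. On leaving out 1 library the sign turned for BAX (−0.35 to 0.21), BAD (−0.37 to 0.33), BID (−0.22 to 0.18), BCL2L12 (−0.18 to 0.26), TRADD (−0.043 to 0.49), FADD (−0.14 to 0.19), TNFRSF10B (−0.078 to 0.082), TNFRSF10A (−0.024 to 0.017), PMAIP1 (−0.076 to 0.10) and CASP6 (−0.0011 to 0.18). Of 476 values of single genes under an alternative, 417 kept direction and call, 28 gained a call, 8 lost one and 23 changed sign. The cause of these changes was not tested.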
